A study of Mus musculus with 171 samples.

Results

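The cells described here are the Stat3-null (MUT) cells of the mouse inner cell mass at embryonic day (E) 3.5. They were chosen as every column of the deposited count table whose title gives E3.5 and MUT, and they number 55 of the 171 cells in the series. Each cell was sequenced as a library of its own. The titles place the 55 cells in 5 embryos, with 5 cells in embryo MUT 2, 19 in MUT 10, 17 in MUT 18, 4 in MUT 23 and 10 in MUT 24. The genotype label of these cells is Stat3 -/-, and the sources used here do not give which exons the allele lacks, the strain or how the embryos were bred. The comparison group is 64 wild-type (WT) inner cell mass cells of the same stage from embryos WT 13, 16, 20, 21 and 22, whose genotype label carries no Stat3 deletion. As a reference for lineage, 28 epiblast and 24 primitive endoderm cells labelled E3.75 in their titles were used, 9 and 14 of them Stat3-null. Their source label reads E3.5 instead, and the title was followed. No treatment is given for any group.

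The inner cell mass of the mouse blastocyst sorts into epiblast, which forms the fetus, and primitive endoderm, which lines the blastocyst cavity and later the yolk sac. Early cells carry both NANOG, the epiblast transcription factor, and GATA6, the primitive endoderm factor, and cells then keep one and lose the other while FGF signalling, sent by epiblast cells as FGF4, favours the endoderm. STAT3 is the transcription factor that carries signals of the LIF family of cytokines from the membrane to the nucleus and helps to sustain naive pluripotent cells.

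Depth differed between cells. The Stat3-null cells held 163822 to 12436040 counts with a median of 3404703, and 5542 to 11309 genes with a count. The wild-type cells held 167101 to 25095390 counts with a median of 5064704.5. To set cells side by side, each was thinned at random to 500000 counts, and levels are given as CPM, counts for every 1000000 of the cell, so that the level called "on" here, 10 CPM, is 5 counts. This kept 50 Stat3-null and 62 wild-type cells and left out 5 and 2 shallower ones. Cells of an embryo share their source, so genotypes were compared over embryos, 5 against 5, and nothing in the labels says whether embryos came from separate litters.

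Some libraries stand apart. Embryo MUT 10 gave 19 of the 50 thinned Stat3-null cells and lies away from the other 4 embryos on the first principal component of the cells, so values are given with and without it where it matters. Among wild-type cells, 33 of 64 held under 300 CPM of Rps2, a ribosomal protein gene that is abundant in every Stat3-null cell (at least 366 CPM). These 33 cells came from WT 13, 16, 20 and 21, and none from WT 22. Their medians for Cyc1 and Pfn1 were low too, at 16 and 22 CPM, against 334 and 602 CPM in the remaining wild-type cells and 410 and 507 CPM in the Stat3-null cells. Rps2 and Cyc1 are also among the genes called below for their SD. The 88 ribosomal protein genes together showed no such deficit by embryo. Their sums had medians of 40651, 48402 and 51882 CPM in WT 16, 20 and 21, which held most of the 33 cells. The medians were 28686 CPM in WT 13 and 45204 CPM in WT 22. The comparisons over embryos, the gene levels and the list medians were repeated without the 33 Rps2-low cells, a choice made after the data were seen. Some of the descriptions of single cells were repeated too. Cell 7 of MUT 10 carried both Y-linked reads (164 CPM) and Xist (327 CPM), whereas no other cell of that embryo had over 19.8 CPM of Y-linked reads. By the summed counts of these genes MUT 23 was male and the other 4 Stat3-null embryos were female, while WT 13, 16 and 20 were male.

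The deletion was checked first on Stat3 itself, at chromosome 11, 100885098 to 100939540 on the minus strand (mm10). Scaled for library composition, the summed cells held 9.90 CPM of Stat3 in MUT 2, 11.1 CPM in MUT 10, 6.18 CPM in MUT 18, 0.119 CPM in MUT 23 and 0.947 CPM in MUT 24. Wild-type embryos held 97.6 CPM in WT 13, 49.8 CPM in WT 16, 40.5 CPM in WT 20, 80.8 CPM in WT 21 and 53.3 CPM in WT 22. No Stat3-null embryo reached the level of any wild-type embryo. On the log2(CPM + 1) scale the means were 2.20 ± 1.55 and 5.96 ± 0.52 (SD, n = 5 embryos each), a difference of -3.75, with an exact two-sided permutation p of 0.00794, the smallest that 5 embryos against 5 allow.

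Stat3 counts remained in most Stat3-null cells, and a few cells held most of them. Of the 55 cells, 10 had no Stat3 count, 20 had 1 to 3 counts and 7 were over 20 CPM. The cells without a count were 2 in MUT 18, 3 of the 4 in MUT 23 and 5 in MUT 24, and at their depths 3 counts would have been 0.298 to 17.8 CPM. The median Stat3-null cell was at 1.13 CPM and the highest at 79.4 CPM, against a median of 61.0 CPM and a highest value of 309 CPM in wild-type cells, of which 1 of 64 had no count and 39 were over 20 CPM. Most Stat3-null cells thus lay far below the wild-type median, while the highest of them passed it.

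The 7 cells over 20 CPM were 5 of MUT 10 and 2 of MUT 18. In MUT 10, cell 7 had 287 counts (49.1 CPM) and cell 4 had 283 counts (40.5 CPM), and cell 9 reached 64.5 CPM with 108 counts. This cell 7 is the one that carried both Y-linked reads and Xist, and whether all its Stat3 counts are its own was not tested. In MUT 18, cell 5 had 284 counts (56.6 CPM), while the value of 79.4 CPM in cell 11 rests on 13 counts in a library of 163822. The most Stat3-rich cell held 67.7% of all Stat3 counts in MUT 2, 23.1% in MUT 10, 63.8% in MUT 18, 100% in MUT 23, where there was 1 count, and 75.9% in MUT 24, where the cell had 22. Pooled over all cells of the genotype, 1839 Stat3 counts among 212969385 gave 8.64 CPM with an exact Poisson 95% interval of 8.24 to 9.04, which covers counting error only and not the spread between embryos.

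**Figure D1:**
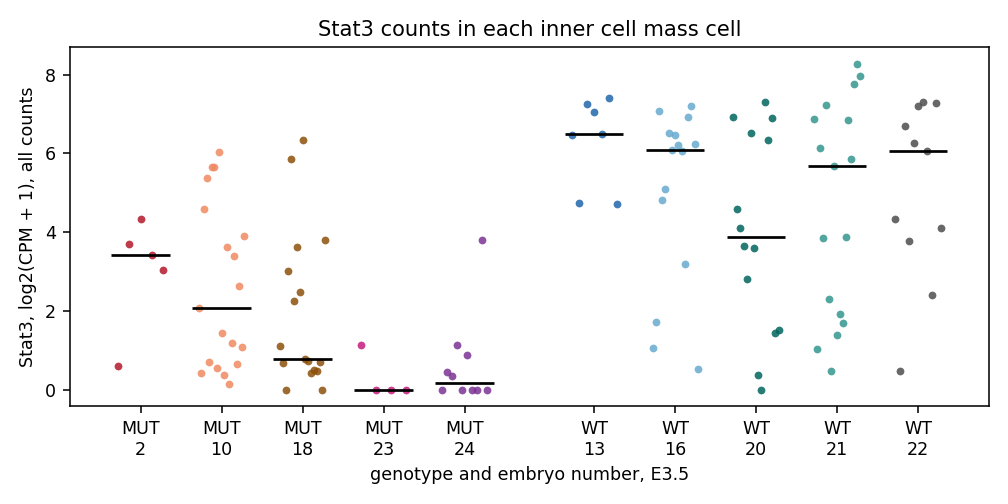
Stat3 in each of the 55 Stat3-null and 64 wild-type E3.5 cells, as log2(CPM + 1) of all counts, by embryo on the x axis; the black line is the embryo's median. Most Stat3-null cells sit near 0, the 7 above 20 CPM belong to MUT 10 and MUT 18, and several wild-type cells are as low as the Stat3-null ones.

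After thinning, a Stat3 count was found in 75% of cells in MUT 2, 63.2% in MUT 10, 53.3% in MUT 18 and 25% in both MUT 23 and MUT 24. The wild-type embryos ran from 80.0% in WT 16 and WT 22 to 100% in WT 13. The ranges did not overlap, and the means were 48.3 ± 22.6% and 87.7 ± 8.95% (SD, n = 5 embryos each; exact permutation p = 0.00794, adjusted p = 0.0265 over 10 embryo values tested). Without thinning the means were 72.6% and 98.6% with an exact permutation p of 0.167, so the call was made at matched depth only.

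Whether a read belongs to Stat3 is uncertain at its 3′ end, where Stat5a, the gene of a related cytokine-activated factor, overlaps it by 72 bases on the opposite strand (chromosome 11, 100885098 to 100885169), and none of the sources used here says whether the counting used strand. Cells with many counts of one gene had many or few of the other. Cell 7 of MUT 24 had 1923 Stat5a counts and no Stat3 count, and cell 15 of that embryo had 711 and none. Of the cells richest in Stat3, cell 7 of MUT 10, the cell with both Y-linked reads and Xist, had 287 Stat3 counts and 183 of Stat5a. Cell 5 of MUT 18 with 284 Stat3 counts had 37 of Stat5a, and cell 4 of MUT 10 with 283 had 2. Over the 50 thinned cells, centred on their embryo's mean, the Spearman correlation of Stat3 with Stat5a was -0.12. Residual Stat3 was also little related to lineage state, at 0.18 with the epiblast score defined below, -0.14 with the primitive endoderm score, 0.22 with Nanog and -0.04 with Gata6. It was 0.01 with Socs3, the feedback inhibitor that STAT3 induces, and 0.34 with the number of genes detected. The points in these correlations share libraries and depth, and the sparse Stat3 counts make weak values no finding.

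Tdgf1, which encodes Cripto, the co-receptor of Nodal signalling and a marker of epiblast, was the lineage marker whose levels did not overlap between the genotypes. The summed cells held 213 CPM of Tdgf1 in MUT 2, 84.3 CPM in MUT 10, 142 CPM in MUT 18, 484.5 CPM in MUT 23 and 194 CPM in MUT 24. The wild-type embryos held 1305, 1800, 1839, 1428 and 1397 CPM in WT 13, 16, 20, 21 and 22. Every Stat3-null embryo was below every wild-type embryo, which held for 1.02% of the 12270 genes tested, and of the list genes for Stat3 and Tdgf1 only. The reverse, every Stat3-null embryo above, held for 0.587% of genes and for no gene of the lists. The fitted log2 difference was -2.80 (SE 0.44), with an adjusted p of 0.0839 in edgeR's quasi-likelihood test over all genes, and it was -2.45 without the Rps2-low wild-type cells. No gene reached an adjusted p of 0.05 in that test (0.00% called), with 375 genes higher (3.06%) and 440 lower (3.59%) at an unadjusted p under 0.05, whereas DESeq2 called 513, with 369 higher and 144 lower.

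In single cells Tdgf1 was lower rather than switched off. All 50 thinned Stat3-null cells had a Tdgf1 count, from 4 CPM through a median of 87 CPM to 688 CPM. The wild-type cells ran from 10 CPM through a median of 1521 CPM to 4480 CPM. The highest Stat3-null cell, cell 9 of MUT 10, was therefore under the wild-type median, and it was also under the 914 CPM median of the wild-type cells that were not low in Rps2. Embryo medians were 114 CPM in MUT 2, 86 CPM in MUT 10, 44 CPM in MUT 18, 518 CPM in MUT 23 and 148 CPM in MUT 24, with MUT 23, the male embryo, highest. At 10 CPM or more, Tdgf1 was on in 75% of cells in MUT 2, 94.7% in MUT 10, 73.3% in MUT 18, 100% in MUT 23 and 75% in MUT 24, and in 100% in each wild-type embryo (means 83.6 ± 12.7% and 100%, n = 5 embryos each; exact permutation p = 0.0476, adjusted p = 0.0794). For reference, Stat3-null epiblast cells at E3.75 had a Tdgf1 median of 838 CPM and Stat3-null primitive endoderm cells 3 CPM, with the E3.5 median of 87 CPM between them.

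Nanog was on in 38 of 50 Stat3-null cells, from 0 through a median of 77 CPM to 784 CPM, and in 50 of 62 wild-type cells, from 0 through 182 CPM to 1594 CPM. The summed cells held 194, 88.3, 208, 169 and 110 CPM in MUT 2, 10, 18, 23 and 24 and 791, 372, 483, 194 and 552 CPM in WT 13, 16, 20, 21 and 22. WT 21 lay within the Stat3-null range, so the groups overlapped, with a log2 difference of -1.64 (SE 0.42) and an adjusted p of 0.594 in edgeR. The cell medians of the Stat3-null embryos were 125, 26, 108, 143 and 102 CPM, of which that of MUT 10 was low. Over all Stat3-null cells outside MUT 10 the median was 122 CPM. The wild-type median was 292 CPM in the cells low in Rps2 and 98 CPM in the others. Without the Rps2-low cells the log2 difference was -1.44 (unadjusted p = 0.0370 in edgeR).

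The sequences upstream of Nanog and Tdgf1 are shown because these epiblast genes varied together from cell to cell and were searched for the letters that STAT proteins bind. Each is the 250 bases before the gene's start, 5′ to 3′ on the gene's strand, from RefSeq (GRCm38.p6). Nanog lies at chr6:122707239-122707488 on the plus strand and Tdgf1 at chr9:110946159-110946408 on the minus strand. Capitals mark the match of the composite OCT4-SOX2 motif.
Nanog: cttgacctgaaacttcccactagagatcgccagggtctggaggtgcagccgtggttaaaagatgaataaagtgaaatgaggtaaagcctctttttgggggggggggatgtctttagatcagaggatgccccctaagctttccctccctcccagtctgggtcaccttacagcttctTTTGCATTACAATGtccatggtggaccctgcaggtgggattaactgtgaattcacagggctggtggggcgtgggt
Tdgf1: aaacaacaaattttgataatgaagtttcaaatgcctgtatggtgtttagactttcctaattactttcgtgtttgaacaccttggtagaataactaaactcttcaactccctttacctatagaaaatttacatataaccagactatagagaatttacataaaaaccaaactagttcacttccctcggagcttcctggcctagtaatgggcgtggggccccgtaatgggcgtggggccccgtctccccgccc

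Motifs were searched on both strands of 300-base windows that also hold the first 50 bases of each gene. The composite motif, the letters in capitals with any base allowed at the eighth, was found at position -75 from the Nanog start shown. It was in 0.00609% of 32851 windows, 2 windows that are both Nanog's. In the other Nanog window, which has a later start, the same match lies at -151. The STAT motif TTCNNNGAA was in neither the Nanog nor the Tdgf1 window, and in 8.30% of all windows. The GATA motif AGATAA was likewise in neither, and in 11.2% of all windows. Of the 134 genes on the lists used here 101 had a window, and 9 of them held the STAT motif and 11 the GATA motif. A match is a description of letters, and these windows say nothing about sites elsewhere.

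Most epiblast genes listed had a lower level in the Stat3-null cells. The list held Nanog, Tdgf1, the pluripotency factors Sox2, Prdm14 and Klf2, the signalling genes Fgf4, Gdf3, Bmp4 and Nodal, and Morc1. Of the 10 genes tested, 9 had a negative log2 difference between summed embryos, against 52.4% of all genes, and the median was -1.40. None passed the adjusted threshold. At an unadjusted p under 0.05, 5 were lower, namely Nanog, Tdgf1, Fgf4, Gdf3 and Morc1. Of the others, Prdm14 was at -2.06, Sox2 at -1.09, Nodal at -0.72, Bmp4 at -0.12 and Klf2 at 0.53. Without the Rps2-low wild-type cells 7 of the 9 genes tested had a negative difference, with a median of -1.44, and the unadjusted p rose to 0.0517 for Fgf4 and 0.0735 for Gdf3 in edgeR. The share of all genes with a negative difference is not given for the fit without those cells, here or for the lists below.

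The epiblast score of a cell was the mean log2(CPM + 1) of these 10 genes. Its mean was 3.41 in MUT 2, 3.6 in MUT 10, 3.32 in MUT 18, 3.86 in MUT 23 and 3.78 in MUT 24, against 4.85 in WT 13, 4.68 in WT 16, 4.50 in WT 20, 4.11 in WT 21 and 4.03 in WT 22. The ranges did not overlap, and the means were 3.59 ± 0.23 and 4.43 ± 0.36 (SD, n = 5 embryos each; exact permutation p = 0.00794, adjusted p = 0.0265). The lists and markers were chosen with earlier results of these data known, so tests of the scores and marker shares are no independent support. Between the kinds of wild-type cell the median score was 4.85 in cells low in Rps2 and 4.07 in the others, with 3.43 in the Stat3-null cells, and without the low cells the difference was -0.80 (exact permutation p = 0.0397). With thinning to 1000000 counts it was -0.64 and no longer passed (exact permutation p = 0.0952). In female embryos alone, 4 against 2, the difference was -0.54 with an exact permutation p of 0.0667, the smallest that such groups allow.

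Fgf4, the ligand by which epiblast cells drive their neighbours towards endoderm, was on in 8 of 50 Stat3-null cells and 26 of 62 wild-type cells. Of the 8 cells, 5 belonged to MUT 10, 2 to MUT 18 and 1 to MUT 24. The summed levels were 1.28, 30.6, 5.88, 5.46 and 7.87 CPM in MUT 2, 10, 18, 23 and 24 and 33.3, 97.6, 18.2, 16.9 and 89.0 CPM in WT 13, 16, 20, 21 and 22. MUT 10 lay within the wild-type range and the other Stat3-null embryos below it (log2 difference -2.32, edgeR adjusted p = 0.727). Gdf3, a TGF-beta family ligand of epiblast, was on in 44 and 55 cells, with medians of 50 and 161 CPM. Bmp4, a ligand that is early epiblast-enriched, was on in 49 of 50 Stat3-null cells with a median of 266 CPM against 271 CPM in wild-type cells. Sox2, which later marks epiblast, was low in both genotypes, at a median of 2 CPM in each and a highest value of 24 CPM in Stat3-null cells, against a median of 62 CPM in Stat3-null epiblast cells at E3.75.

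Primitive endoderm genes were spread unevenly over the Stat3-null embryos. The list held the transcription factors Gata6, Gata4, Sox17 and Sox7, the receptors Pdgfra and Fgfr2, the basement membrane genes Lamb1, Lama1, Lamc1, Col4a1 and Col4a2, the collagen chaperone Serpinh1, the endocytic genes Dab2, Cubn, Lrp2 and Amn, and Timd2. Of the 17 genes tested 12 had a positive log2 difference, against 47.6% of all genes, with a median of 0.83. None passed the adjusted threshold, and Sox17, Lamb1 and Col4a2 were higher at an unadjusted p under 0.05. Without the Rps2-low cells 13 of 17 had a positive difference, with a median of 0.98, and Col4a2 had an unadjusted p of 0.112 in edgeR.

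Sox17, a transcription factor of committed endoderm, was found in a larger share of cells in every Stat3-null embryo than in any wild-type embryo. In the thinned Stat3-null cells it ran from 0 through a median of 16 CPM to 704 CPM and was on in 28 of 50, of which 18 reached 100 CPM. In wild-type cells it ran from 0 through a median of 0 to 38 CPM and was on in 7 of 62, none at 50 CPM. The share of cells with Sox17 was 25% in MUT 2, 89.5% in MUT 10, 40% in MUT 18, 25% in MUT 23 and 37.5% in MUT 24. In wild-type embryos it was 14.3% in WT 13, 0% in WT 16, 7.69% in WT 20, 23.5% in WT 21 and 10% in WT 22. The ranges did not overlap (means 43.4 ± 26.7% and 11.1 ± 8.67%, n = 5 embryos each; exact permutation p = 0.00794, adjusted p = 0.0265), but 25% in MUT 2 and MUT 23 is 1 cell of 4.

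The difference in Sox17 share was 20.8 percentage points without MUT 10 and 25 points without the Rps2-low wild-type cells, the latter with an exact permutation p of 0.0556. A share at 10 CPM is a low bar for Sox17, because 9 of 19 wild-type epiblast cells at E3.75 also passed it, with a median of 4 CPM and a highest value of 40 CPM, as did 2 of 9 Stat3-null epiblast cells. Levels of 50 CPM or more were reached by 14 of 19 cells in MUT 10, 4 of 15 in MUT 18, 1 of 4 in MUT 23, 2 of 8 in MUT 24 and none in MUT 2. Stat3-null primitive endoderm cells at E3.75 had a median of 454 CPM. The summed levels were 3.83, 149, 69.5, 18.4 and 106 CPM in MUT 2, 10, 18, 23 and 24 and 0.264 to 5.12 CPM in the wild-type embryos. MUT 2 fell within the wild-type range, and the log2 difference of 4.81 (SE 1.04) had an adjusted p of 0.435 in edgeR.

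**Figure D2:**
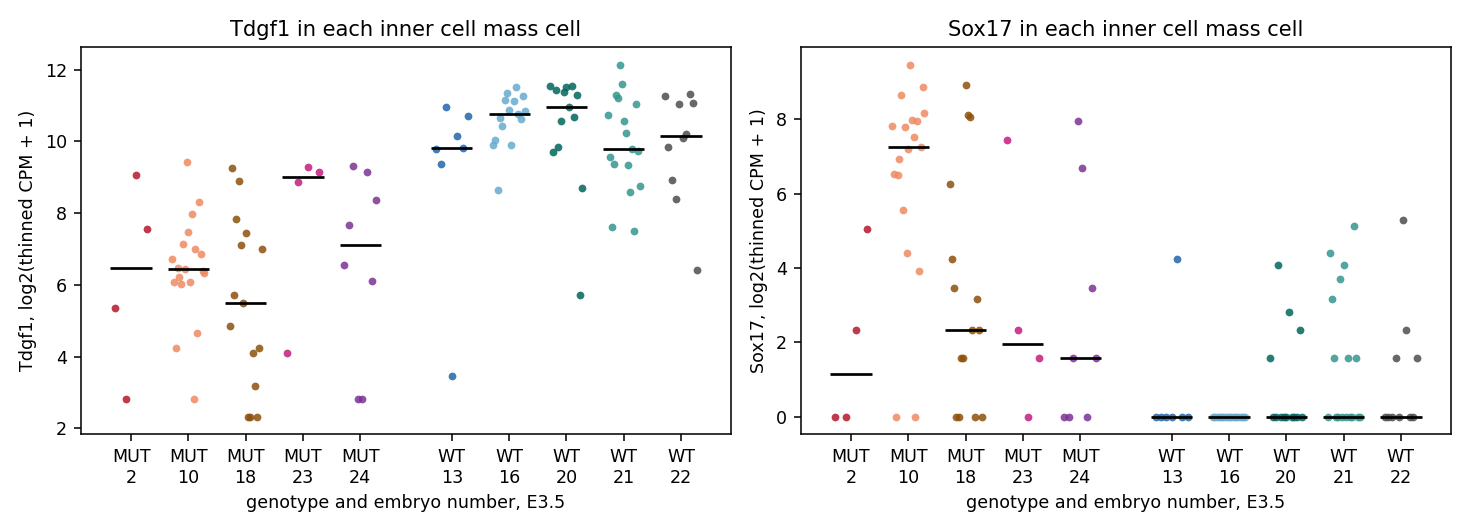
Tdgf1 (left) and Sox17 (right) in each thinned E3.5 cell, as log2(CPM + 1), by embryo; the black line is the embryo's median. Tdgf1 reaches 688 CPM in Stat3-null cells against 4480 CPM in wild-type cells, and Sox17 above 38 CPM is seen in Stat3-null cells of 4 embryos and in no wild-type cell.

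Gata6, on in 41 of 50 Stat3-null and 36 of 62 wild-type cells, ran from 0 through a median of 69 CPM to 274 CPM and from 0 through 18 CPM to 302 CPM. Its summed levels were 35.8, 97.4, 42.6, 33.7 and 114 CPM in the Stat3-null embryos and 7.21, 40.4, 69.9, 36.6 and 45.6 CPM in the wild-type embryos, which overlap (log2 difference 0.70, edgeR adjusted p = 0.904). Lamb1, a laminin chain of the endoderm's basement membrane, ran from 2 through a median of 525 CPM to 5296 CPM in Stat3-null cells and from 0 through 111 CPM to 1464 CPM in wild-type cells. The cell median was 1706 CPM in MUT 10 and 114 to 316 CPM in the other 4 Stat3-null embryos, against 22 to 244 CPM in the wild-type embryos. The summed levels were 549, 1637, 482, 107 and 611 CPM in MUT 2, 10, 18, 23 and 24. They were 271, 118, 196, 401 and 142 CPM in WT 13, 16, 20, 21 and 22. By these sums MUT 23 lay below every wild-type embryo and the other Stat3-null embryos above them (log2 difference 1.58, edgeR adjusted p = 0.727). MUT 10 was the highest embryo by both measures.

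Timd2, a ferritin receptor found in endoderm, had a negative difference. Its median was 121 CPM in Stat3-null and 297 CPM in wild-type cells, and its summed levels were 51.2, 101, 438, 189 and 341 CPM against 136, 943, 236, 648 and 664 CPM (log2 difference -1.23, edgeR adjusted p = 0.772, and -1.55 without the Rps2-low cells). MUT 18 held the highest cell, at 1986 CPM. Gata4 and Pdgfra depended on the embryo. Gata4, which acts after GATA6 in the endoderm, had a median of 406 CPM in MUT 10 and of 1 to 4 CPM in the other Stat3-null embryos, and was on in 16 of 19 cells of MUT 10 and in none of MUT 23. Pdgfra, the receptor tyrosine kinase of early endoderm, had a median of 580 CPM in MUT 10 and of 4 to 66 CPM elsewhere. Dab2, a late endoderm adaptor of endocytosis, was on in 5 of 50 Stat3-null cells and 18 of 62 wild-type cells, against 13 of 14 Stat3-null endoderm cells at E3.75.

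The primitive endoderm score, the mean log2(CPM + 1) of the 17 genes, was 3.21 in MUT 2, 5.54 in MUT 10, 3.73 in MUT 18, 2.55 in MUT 23 and 3.38 in MUT 24, against 3.33, 2.41, 2.91, 3.22 and 3.38 in WT 13, 16, 20, 21 and 22. The means of 3.68 ± 1.12 and 3.05 ± 0.40 were not told apart (n = 5 embryos each; exact permutation p = 0.278, adjusted p = 0.317), and MUT 10 alone lay well above the wild-type range. Subtracting the epiblast score gives a lean towards endoderm. The embryo means were -0.20, 1.94, 0.42, -1.32 and -0.40 in MUT 2, 10, 18, 23 and 24 and -1.52, -2.28, -1.59, -0.89 and -0.65 in the wild-type embryos. MUT 23 lay among the wild-type embryos and the other 4 above them (means 0.09 ± 1.21 and -1.39 ± 0.64; exact permutation p = 0.0317, adjusted p = 0.0794, which does not pass). Without MUT 10 the difference fell from 1.47 to 1.01.

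Few Stat3-null cells had a lean in the range of epiblast cells. The highest lean of a wild-type epiblast cell at E3.75 was -3.20 and the lowest of a wild-type primitive endoderm cell was 0.98, and these bounds were used as ranges, not as cell types. Of the 50 Stat3-null cells 4 fell in the epiblast range, 21 between and 25 in the endoderm range, with 7 within 0.5 of a bound. Of the 62 wild-type cells 19, 32 and 11 did, with 17 near a bound, and of the 29 that were not low in Rps2 the counts were 7, 18 and 4. The 4 epiblast-range cells were 1 of MUT 23 and 3 of MUT 24, and MUT 2, 10 and 18 had none. Of the 25 endoderm-range cells, 14 belonged to MUT 10, 6 to MUT 18, 3 to MUT 24 and 1 each to MUT 2 and MUT 23. The same bounds placed 7 of 9 Stat3-null epiblast cells of E3.75 in the epiblast range and 14 of 14 Stat3-null endoderm cells in the endoderm range.

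**Figure D3:**
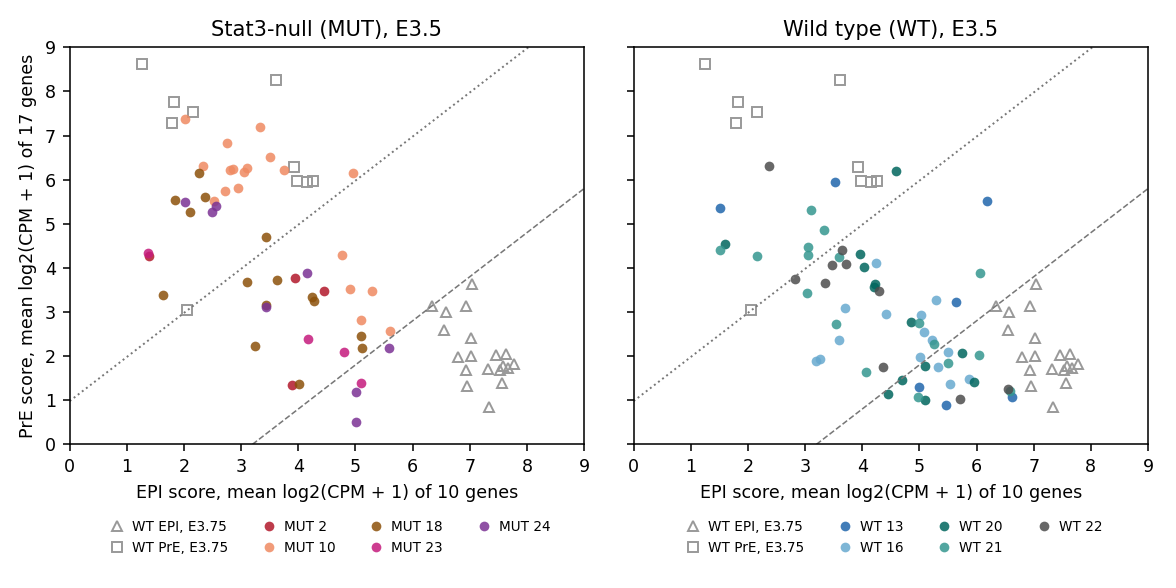
Epiblast (EPI) score on the x axis and primitive endoderm (PrE) score on the y axis, both mean log2(CPM + 1), for Stat3-null (left) and wild-type (right) E3.5 cells coloured by embryo, with wild-type E3.75 cells in grey. The dashed and dotted lines are the highest lean of a wild-type E3.75 epiblast cell (-3.20) and the lowest of a wild-type E3.75 endoderm cell (0.98); 4 of 50 Stat3-null and 19 of 62 wild-type cells lie on or below the dashed line.

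The cells of 1 embryo differed widely. The SD of the lean within an embryo was 2.28 in MUT 2, 2.47 in MUT 10, 2.35 in MUT 18, 2.96 in MUT 23 and 3.24 in MUT 24, and 1.28 to 3.56 in the wild-type embryos (means 2.66 ± 0.42 and 2.53 ± 0.83; exact permutation p = 0.786, adjusted p = 0.786). Epiblast and endoderm scores ran against each other within embryos, with a Spearman correlation of -0.40 in MUT 2, -0.60 in MUT 10, -0.69 in MUT 18, -1 in MUT 23 and -0.88 in MUT 24, over 4 to 19 cells each. Centred on the embryo, it was -0.80 over the 50 Stat3-null cells, -0.75 over the 31 outside MUT 10 and -0.64 over the 62 wild-type cells (-0.67 over the 29 not low in Rps2). Both scores of a cell come from 1 library, and no test was made of the difference between the genotypes.

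Most Stat3-null cells had both Nanog and Gata6 at the low level of 10 CPM, and few had both at a high one. At 10 CPM, 29 of 50 cells had both, 9 had Nanog alone, 12 had Gata6 alone and none had neither. The 58% with both was slightly under the 62.3% that the product of the shares of each gene gives, and in wild-type cells it was 41.9% against 46.8%. By embryo the double-positive cells were 3 of 4 in MUT 2, 13 of 19 in MUT 10, 8 of 15 in MUT 18, 2 of 4 in MUT 23 and 3 of 8 in MUT 24. In wild-type cells the counts were 26 of 62 with both, 24 with Nanog alone, 10 with Gata6 alone and 2 with neither. Over embryos the share with both was 56.9 ± 15% and 41.2 ± 20.6% (n = 5 each; exact permutation p = 0.190, adjusted p = 0.272), a difference within the spread of embryos.

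At 50 CPM, 8 of 50 Stat3-null cells had both genes, 19 Nanog alone, 22 Gata6 alone and 1 neither, against 11, 31, 8 and 12 of 62 wild-type cells. At 100 CPM only 3 Stat3-null cells had both, 2 of them in MUT 10 and 1 in MUT 24, while 21 had Nanog alone, 14 Gata6 alone and 12 neither. The ranked levels ran against each other, with a centred Spearman correlation of -0.61 over the 50 Stat3-null cells, -0.61 without MUT 10 and -0.64 over the wild-type cells (-0.62 over those not low in Rps2). At E3.75, 2 of 9 Stat3-null epiblast cells and 2 of 14 Stat3-null endoderm cells had both genes at 10 CPM. In wild-type endoderm cells of that stage 7 of 10 did.

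The lean and Lamb1 stepped from one kind of Stat3-null cell to the next, while Sox17 and Tdgf1 did not step evenly. Cells with both factors had a median lean of 0.10 and ran from -3.40 to 4.07, within the -4.50 to 5.36 of the genotype. The 9 cells with Nanog alone had a median lean of -2.93, and the 12 with Gata6 alone had a median of 3.04 and none under 1.75. Lamb1 medians were 82 CPM with Nanog alone, 392 CPM with both and 1155 CPM with Gata6 alone. They were 81, 265 and 962 CPM in the same order without MUT 10.

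Sox17 was on in 1 of the 9 Stat3-null cells with Nanog alone, 20 of the 29 with both and 7 of the 12 with Gata6 alone. Embryo MUT 10 gave 12 of the 20 and 5 of the 7. Outside MUT 10 Sox17 was on in 1 of 8, 8 of 16 and 2 of 7 cells of these kinds. In wild-type cells it was on in 1 of 24 with Nanog alone, 2 of 26 with both and 4 of 10 with Gata6 alone. Over the wild-type cells not low in Rps2 it was on in 0 of 9, 1 of 14 and 4 of 5. Tdgf1 was on in 8 of 9, 26 of 29 and 8 of 12 Stat3-null cells, with medians of 204, 114 and 17 CPM, and in every wild-type cell of the 3 kinds. Nanog and Gata6 are themselves part of the scores, so the order of the leans is partly built in.

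**Figure D4:**
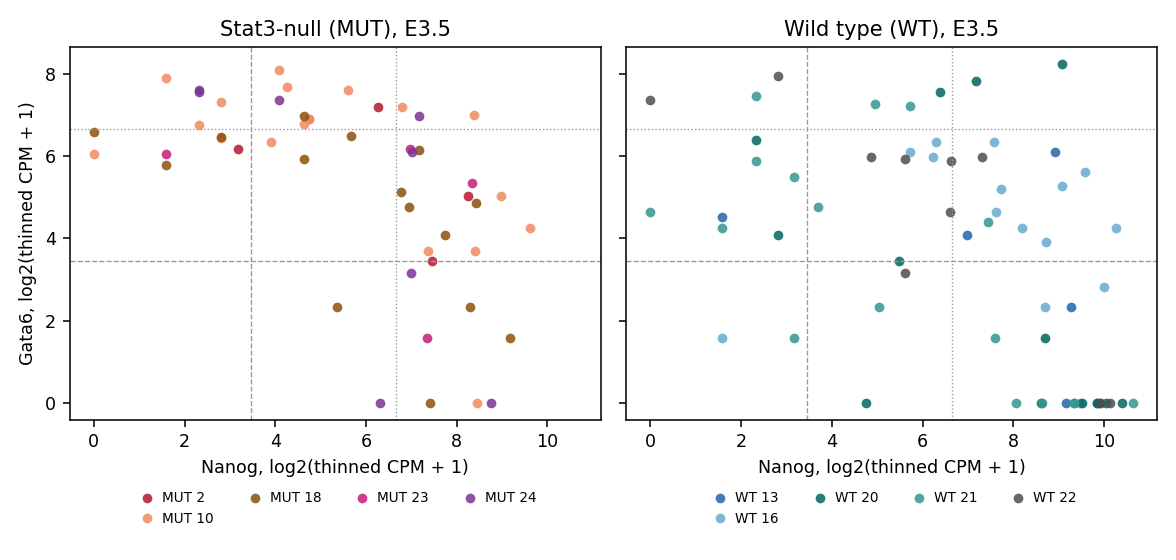
Nanog on the x axis and Gata6 on the y axis, log2(thinned CPM + 1), for Stat3-null (left) and wild-type (right) E3.5 cells coloured by embryo; dashed lines mark 10 CPM and dotted lines 100 CPM. Of the Stat3-null cells 29 of 50 lie above both dashed lines and 3 above both dotted lines, and no Stat3-null cell lacks both genes at 10 CPM.

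Over all pairs of the 6 lineage markers, epiblast markers varied with each other and against endoderm markers in the Stat3-null cells. Gata6 and Timd2 had the highest centred Spearman correlation, 0.70 over 50 cells (0.75 without MUT 10), against 0.42 over 62 wild-type cells. Gata6 and Lamb1 followed at 0.54, then Nanog and Tdgf1 at 0.53, Gata6 and Sox17 at 0.44, Lamb1 and Timd2 at 0.40, and Sox17 and Timd2 at 0.37. Against each other, after Nanog and Gata6, stood Nanog and Timd2 (-0.49), Nanog and Lamb1 (-0.48), Tdgf1 and Timd2 (-0.44), Tdgf1 and Lamb1 (-0.43), Gata6 and Tdgf1 (-0.40) and Tdgf1 and Sox17 (-0.37). The weakest were Nanog and Sox17 at -0.25 and Sox17 and Lamb1 at 0.25. All signs were the same in the wild-type cells but that of Tdgf1 and Lamb1, which was 0.04 there (0.30 over the cells not low in Rps2). These values describe cells of 5 embryos and carry no test.

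Of the 85 list genes measured, those that followed Nanog most closely in Stat3-null cells were Bmp4 at 0.54, Tdgf1, the FGF-responsive factor Etv5 at 0.53, Trp53, which encodes p53, at 0.51, and Fgf4 at 0.46. Bmp4 had no such relation in wild-type cells (-0.01, and 0.13 over those not low in Rps2). Those most opposed to Nanog were Fgfr2, the FGF receptor of endoderm, at -0.63, Gata6, the chaperone gene Serpinh1 at -0.53, Pdgfra at -0.53 and the zinc-finger gene Sall4 at -0.52. Gata6 was followed most closely by Timd2, Lamb1, Cubn, a receptor of endocytosis, at 0.52, Gata4 at 0.50 and Fgfr2 at 0.49. It was most opposed to Nanog, Prdm14 at -0.44, Bmp4 at -0.40, Tdgf1 and the kinase gene Tyk2 at -0.39. The order of these genes rests in part on MUT 10. Over the 31 cells outside it, Prdm14 was the closest to Nanog at 0.66, where it was at 0.37 over all 50, and Bmp4 and Etv5 came next at 0.58 each, while Fgf4 was at 0.29. Timd2 was then the most opposed to Nanog at -0.65, and Fgfr2 was at -0.43. Timd2 and Lamb1 remained the closest to Gata6, at 0.75 and 0.65, followed by Sox7 at 0.63.

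**Figure D5:**
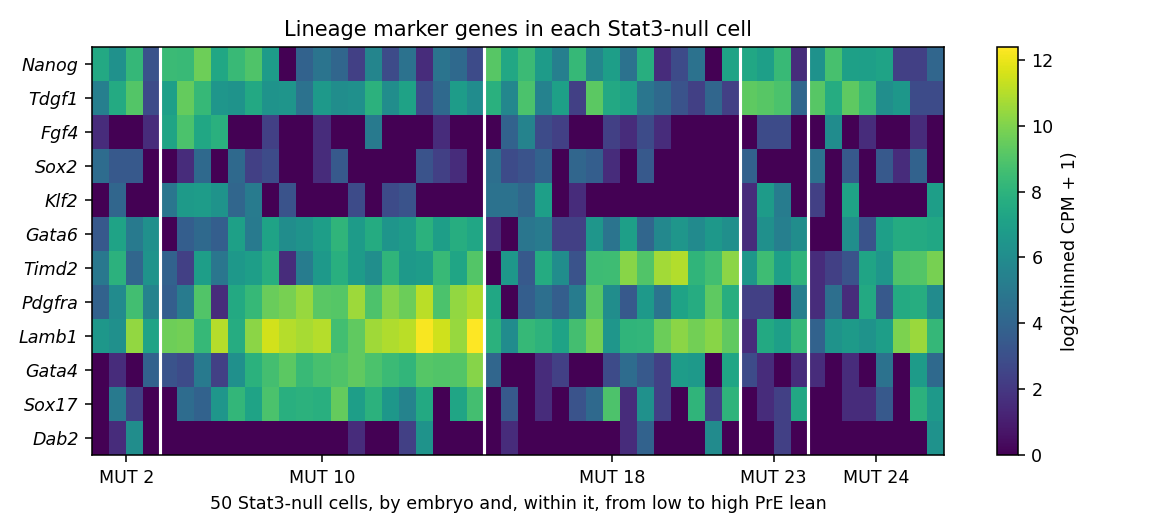
Level of 12 lineage genes, log2(thinned CPM + 1), in the 50 Stat3-null cells, grouped by embryo and ordered within it from low to high endoderm lean, with epiblast genes in the upper 5 rows and endoderm genes in the lower 7. Gata4, Pdgfra, Lamb1 and Sox17 are high over most cells of MUT 10, while Nanog and Tdgf1 fall and Gata6 and Timd2 rise from left to right within the embryos. All 12 genes are part of the scores that set this order, so the fall and rise are partly built in.

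Across all genes with a mean of at least 10 CPM (7651 genes), cells of 1 Stat3-null embryo correlated with each other at a mean of 0.535 ± 0.040, against 0.508 ± 0.035 in wild-type embryos (n = 5 each; exact permutation p = 0.286, adjusted p = 0.317). The median SD of a gene within an embryo, in log2 units, was 1.69 in MUT 2, 1.78 in MUT 10, 2.17 in MUT 18, 1.90 in MUT 23 and 2.36 in MUT 24, against 2.16 to 2.51 in wild-type embryos (means 1.98 ± 0.28 and 2.34 ± 0.14; exact permutation p = 0.0476, adjusted p = 0.0794). Without the Rps2-low wild-type cells the wild-type mean was 2.04 and the difference -0.06 (exact permutation p = 0.746). MUT 2 and MUT 10, the lowest, had the most genes detected at matched depth, medians of 7426.5 and 8146 against 5888 to 6823 in the other Stat3-null embryos, whose part in this was not tested. The SDs rest on 4, 19, 15, 4 and 8 thinned cells in MUT 2, 10, 18, 23 and 24. In the wild-type embryos they rest on 7 to 17 cells, and the part of cell number was not tested either.

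Embryo MUT 10 set much of the variation that lay between Stat3-null embryos. The embryo's share of a gene's variance had a median of 16.6% in Stat3-null cells and 3.37% in wild-type cells, but it was 2.76% in Stat3-null cells without MUT 10 and 0.623% in the wild-type cells not low in Rps2. The first principal component of the 1000 most variable genes took 33.5% of the variance, of which 89.5% lay between embryos, with a median position of -58.5 in MUT 10 and of 32.3 to 52.7 in the others. It had a Spearman correlation of -0.78 with the genes detected. Its end away from MUT 10 was led by the pseudogene Rps13-ps1, the metallothioneins Mt1 and Mt2, Bex3, 1700013H16Rik, Rps27l, Uqcrb and Rps27, and the MUT 10 end by the mitotic genes Bub1b and Espl1 and by Srsf2, Ap1g1, Slc30a5, Stard7, Usp33 and Ddb1. The ribosomal protein genes, 88 in all, summed to a median of 21736 CPM in MUT 10 and of 41709 to 105345 CPM in the other Stat3-null embryos, and the mitochondrial share of counts was 4.24% against 7.67% to 12.7%. Whether these values play a part in how MUT 10 differs was not tested.

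The second component, 4.84% of the variance, followed lineage inside embryos. Only 0.48% of it lay between embryos, and its Spearman correlation with the lean was 0.80. Its endoderm end was led by Emb, Flrt3, Glipr2, the water channel Aqp8, Cpn1, Cubn, Creb3l2 and Havcr1, and its epiblast end by Spic, Xkr8, Nanog, Cyp2b23, Depdc7, Ly6c1, Phf6 and Slc1a1. Most of these genes are in neither score.

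The genes that varied most among Stat3-null cells beyond what their mean level sets were, in order, Aqp8, Glipr2, Cltc, Cubn, Pdgfra, Emb, Ddb1, 1700013H16Rik, Srsf2, Rcbtb1, Iars, Txnip, Havcr1, Gata4 and Lama1, of which Cubn, Pdgfra, Gata4 and Lama1 are on the endoderm list. Aqp8 ran from 0 through a median of 244 CPM to 1242 CPM, with 4 cells at 0 and 30 over 100 CPM, and 12.7% of its variance lay between embryos. Glipr2 ran from 0 through 129 CPM to 3136 CPM with 13.4% between embryos. These were variable in wild-type cells too, at ranks 4 and 20 of 7651 (9 and 160 over the cells not low in Rps2), and in the Stat3-null cells outside MUT 10 they ranked 3 and 2. In 6 of the 15 genes over 50% of the variance lay between embryos and the mean was highest in MUT 10. These were Cltc, which encodes the clathrin heavy chain, at 63.8%, Ddb1 at 66.1%, Srsf2 at 69.4%, Rcbtb1 at 65.3%, Gata4 at 59.2% and Iars, which encodes a tRNA synthetase, at 50.9%. Gata4 had a mean of 373 CPM in MUT 10 and of 2.5 to 28.7 CPM in the others. Without MUT 10 these 6 genes fell to ranks 393 to 5677. Of the 15 primitive endoderm genes measured, 11 were among the 1000 genes of largest excess variance and 8 among the first 100. This compares with 1 and 0 of the 9 epiblast genes, and with 1000 and 100 of all 7651 genes. Over all 5 embryos the endoderm genes were also more tied to the embryo, with a median of 30.8% of their variance between embryos against 16.6% for all genes. This rested on MUT 10, since in the cells outside it the medians were 0% and 2.76%. Without MUT 10, 7 of the 15 endoderm genes were among the first 1000 and 2 among the first 100, against 5 and 0 of the 9 epiblast genes. The contrast between the lists in the first 1000 was thus lost without that embryo.

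The genes most tied to the embryo were mostly ribosomal genes and processed pseudogenes. The embryo held 92.1% of the variance of Rps13-ps1, 90.4% of that of Tpm3-rs7, 89.6% of Rpsa, 88.7% of Rpsa-ps10, 85.3% of the phosphatase gene Ptp4a1, 85.1% of Gm15772, 80.8% of Gm10020 and 78.8% of Rps3a3. Rpsa had means of 1285, 220, 2205, 1169 and 265 CPM in MUT 2, 10, 18, 23 and 24, while its pseudogene Rpsa-ps10 had 19, 229, 27.5, 8.50 and 207 CPM, high where Rpsa was low. Near-identical copies can exchange reads in counting, so these values are uncertain, and in wild-type cells the same copies were also tied to the embryo (91.1% for Rps13-ps1 and 79.4% for Rpsa).

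Gene by gene, the SD within embryos differed between the genotypes for 27 of 7651 genes (0.353%) by limma on the embryo values, 4 larger and 23 smaller in Stat3-null embryos. At an unadjusted p under 0.05 the SD was larger for 1.32% and smaller for 15.8% of genes. Over all genes the SD was larger in Stat3-null embryos for 25.3% (32.4% without the Rps2-low cells). The part of the number of cells per embryo in these shares was not tested. Of the genes with the larger SD, 3 are described here, which were on in some Stat3-null cells and nearly absent from wild-type ones. A gene absent from the wild-type cells has an SD near 0 there, so for these genes the larger SD restates their detection and is given with no test. Qsox2, a sulfhydryl oxidase gene, was on in 18 of 50 Stat3-null and 0 of 62 wild-type cells, 12 of the 18 in MUT 10. Fance, a gene of the Fanconi DNA repair pathway, was on in 25 and 0 cells, and Parm1, which encodes a mucin-like protein, in 22 and 1. Fance was on in 16 of 19 cells of MUT 10, and Parm1 in 12 of 15 of MUT 18.

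Of the genes of smaller SD in Stat3-null embryos, the 8 named by rule were Dppa1, Cyc1, Fkbp1a, Slc25a39, Timm50, Clta, Rps2 and Ndc1. Cyc1, a subunit of respiratory complex III, was on in 50 of 50 Stat3-null and 46 of 62 wild-type cells and its SD was smaller by 2.13 (limma adjusted p = 0.0176). Rps2, Cyc1 and Timm50 are low in the 33 wild-type cells that stand apart, and of the 27 calls 4 were also made without those cells, when 8 genes were called. Dppa1, a gene of early embryo cells, was instead nearly off, in 1 of 50 Stat3-null and 16 of 62 wild-type cells. The number of calls rests on single embryos: it was 0 without MUT 10, WT 16 or WT 21, 1 without WT 20 and 219 without MUT 24.

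The other lists held few genes at an unadjusted p under 0.05, and most of these did not keep it without the Rps2-low cells. For the counts below, 47.6% of all genes tested had a positive and 52.4% a negative difference. At that unadjusted p in edgeR, 3.06% of all genes were higher and 3.59% lower. Of 14 naive pluripotency genes tested, 4 had a positive and 10 a negative log2 difference (median -0.32), and of these Tfcp2l1, a naive factor that STAT3 induces, and Dppa4 were lower at an unadjusted p under 0.05. Tfcp2l1 was at 546.5, 568, 500, 304 and 319 CPM in MUT 2, 10, 18, 23 and 24 and at 796, 869, 1495, 693 and 554 CPM in WT 13, 16, 20, 21 and 22 (log2 difference -0.98, edgeR adjusted p = 0.727), and the log2 difference was -0.28 without the Rps2-low cells. Of 12 known STAT3 targets, 4 were positive and 8 negative (median -0.62, and -1.05 without the Rps2-low cells). The kinase gene Sgk1 and the adhesion gene Icam1 were lower, with log2 differences of -1.76 and -3.15, and Pim3, another kinase gene, was higher at 2.88, each at an unadjusted p under 0.05 and an edgeR adjusted p of 0.727. Without the Rps2-low cells these differences were -1.19, -2.61 and 1.38, with unadjusted p of 0.0591, 0.0563 and 0.251 in edgeR. Of 14 FGF and ERK genes 9 were positive and 5 negative (median 0.09, and 0.32 without those cells), with Dusp4, a phosphatase induced by ERK, at 2.45 and the early response gene Ier2 at 1.26, which were 2.42 and 0.43 without them.

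Among 5 LIF-family receptors and kinases 3 were positive and 2 negative (median 0.30), but 1 and 4 without the Rps2-low cells (median -0.35), and among 6 STAT genes 2 and 4 (median -0.61), of which Stat3 alone was lower at an unadjusted p under 0.05. Stat5b, a near relative of Stat5a, was at 2.38, and at 5.61 without the Rps2-low cells (unadjusted p = 0.0138 in edgeR). Of 15 cell cycle genes 5 were positive and 10 negative (median -0.13), and of 11 stress and death genes 4 and 7 (median -0.51), with Trp53 at -1.12, which was -0.78 without the Rps2-low cells (unadjusted p = 0.131 in edgeR). No gene of any of these lists passed the adjusted threshold.

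Markers of other cell types were looked for because an inner cell mass sample can carry trophectoderm, the outer layer, or remnants of the oocyte. The 15 trophectoderm genes summed to a median of 303 CPM in Stat3-null cells (14 to 988 CPM) and 297 CPM in wild-type cells, with embryo means of 302.5 to 369 and 206 to 491 CPM. Only Krt8 and Tead4 had medians of 10 CPM or more in Stat3-null cells, and Krt7 was at 0 in every cell of both genotypes. Of 8 trophectoderm genes tested between genotypes 4 were positive and 4 negative (median -0.10), near the 47.6% and 52.4% of all genes. Fgfbp1 was lower at an unadjusted p under 0.05. Without the Rps2-low cells 4 of 7 were positive with a median of 0.60, and Gata3 was at 4.12 (unadjusted p = 0.0136 in edgeR) where it was at 1.07 with them. In thinned cells Eomes, a factor of trophectoderm stem cells, was on in 22 of 50 Stat3-null and 4 of 62 wild-type cells. Tead4 was on in 34 and 24, Gata3 in 11 and 6, and Krt18 in 24 and 19. The share was instead lower in Stat3-null cells for Id2, on in 5 and 9, and Krt19, on in 5 and 7. It was also lower for Fgfbp1, on in 0 and 3, and Cdx2, on in 0 and 1. The log2 difference was 1.98 for Eomes, 0.49 for Tead4, -0.57 for Krt8, -0.76 for Krt19 and -1.09 for Id2. None of these had an unadjusted p under 0.05. Of 8 oocyte genes 4 (Zp1, Gdf9, Bmp15 and Oosp1) were at 0 in every Stat3-null cell, the 2 tested were both positive (median 0.11), and none had a median over 10 CPM. Of 6 blood genes 4 (Hba-a2, Hbb-bs, Hbb-bt and Ptprc) were at 0 in every Stat3-null cell, and none was abundant enough to be tested. Their part in the lineage results was not tested.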

How the data were processed

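The authors deposited a table of raw counts, whole reads per gene and cell with no normalization, in which 1 sample is 1 cell; all 171 columns and 49671 gene rows were used, and no 2 cells had identical counts. STAR, HTSeq and build mm10 were used, per the submitters' processing notes; their versions, the use of strand and the way libraries were made were not given in those notes or the labels. Names and positions came from GENCODE vM21 (49412 rows matched; the others held 0.0101% of counts). The embryo was read as the first number in the title. What the letter in the title stands for was not stated. PCR copies cannot be told from molecules, so intervals cover counting error only. Doublets were not searched for, and cells were not clustered.

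Cells were thinned to 500000 counts (seed 11) for values per cell. Sums per embryo were fitted with edgeR 4.0.16's quasi-likelihood test (TMM scaling, minimum count 10) in R 4.3.3, and SDs within embryos with limma 3.58.1, weighted by cells, both adjusted by Benjamini-Hochberg over all genes at a threshold of 0.05. Exact two-sided permutation tests over embryos went through every allocation with numpy 2.4.6. Spearman correlations and the Poisson interval used scipy 1.17.1. Figures used matplotlib 3.10.9. Scripts were tested on simulated data. Alternatives were other thinning, scaling, filters, pseudocounts and on levels, DESeq2 1.42.0, cells of letter H, shallow cells left out, and each embryo left out. Removal of the Rps2-low cells and female embryos alone were added after seeing the data. The cells, markers and 12 gene lists were chosen with earlier results of these data known.

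Genes named were the 7 markers, in each list up to 5 by level in Stat3-null cells plus any past the test, 15 by excess variance, 8 by embryo share at 50 CPM or more, 8 loadings per end of 2 components, and up to 8 rises and falls past a threshold. Others of the 2 score lists, and genes at an unadjusted p under 0.05, were named after their values were seen. A gene called for its SD is not reported here.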

Additional observations from a re-analysis of the deposited data

Results flagged for a closer look

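Among 34 groups of embryo values, 1 held a value far from the others, and chance alone gives about 1 in 20. The share of cells with Sox17 at 10 CPM or more was 89.5% in MUT 10 and 25% to 40% in the other 4 Stat3-null embryos, so that the gap to the nearest embryo was 0.767 of the whole range, over Dixon's 95% limit for 5 values. MUT 10 had 17 of 19 cells with Sox17.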

How the results depend on the processing

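The 13 results were recomputed under 80 other settings and 130 fits without 1 embryo; 51 and 101 of these kept direction and side of the threshold on the unadjusted p, or stayed within 1.5 times for a count. The cause was not tested for the changes below, apart from the smaller number of cells or embryos. With thinning to 1000000 counts the exact permutation p rose over 0.05 for the epiblast score (-0.64), the lean (1.12), the Sox17 share (20.1 points) and the Tdgf1 share (-14.1), and the SD of the lean reversed to -0.15. With letter H cells alone (2 to 5 Stat3-null embryos) the Stat3-count share (-23.3), the median SD (-0.19), the epiblast score (-1.07), the lean (1.84) and the Tdgf1 share (-10.0) lost the threshold, and the correlation (-0.000251) and the share with Nanog and Gata6 (-13.3) reversed. Without thinning the Stat3-count share was -25.9, and 42 genes were called for SD. At 1 count as on, the Tdgf1 share was 0 apart, since every cell had a count, and the share with Nanog and Gata6 was 22.4 points higher (exact permutation p = 0.0397). At a mean of 1 CPM the median SD was -0.23 with 6 SD calls, and without weights 2 SD calls. Without the Rps2-low cells the median SD was -0.060, the lean 1.52 and the Sox17 share 25 points, with 8 SD calls. In female embryos the epiblast score was -0.54, the lean 1.21 and the Sox17 share 31.2, where 4 against 2 cannot pass. Genes called between genotypes were 3 without a filter, 513 by DESeq2 and 1 without shallow cells. Leaving out 1 embryo at a time gave -0.94 to -0.74 for the epiblast score, 1.01 to 1.82 for the lean (over the threshold without MUT 10, WT 13, WT 16 or WT 20), 0.17 to 0.92 for the endoderm score, -4.10 to -3.24 for Stat3, 0.0145 to 0.0395 for the correlation, 20.8 to 36.9 for the Sox17 share, -20.5 to -13.8 for the Tdgf1 share, -46.1 to -33.6 for the Stat3-count share, 11.1 to 23.6 for the share with Nanog and Gata6, -0.45 to -0.28 for the median SD, 0 to 1 gene called and 0 to 219 SD calls. Of the 10 such fits, the exact permutation p was under 0.05 in 5 for the Tdgf1 share and in 3 for the median SD. For the Tdgf1 share it was over 0.05 whichever wild-type embryo was left out. The SD of the lean ran from -0.18 to 0.39, reversed without MUT 24 (-0.012) and WT 16 (-0.18). No paired analysis was possible because the Stat3-null and wild-type E3.5 embryos share no embryo number. Depth left out 5 Stat3-null cells, and a share within MUT 2 or MUT 23 rests on 4 cells.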

Other observations

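Cells 5 and 6 of MUT 23 had 1.82 and 0.993 CPM of the 4 Y-linked genes and 2.13 and 3.47 CPM of Xist, while cells 3 and 4 of that embryo had 104 and 159 CPM of the Y-linked genes. Cell 4 of MUT 10 and cell 2 of MUT 18 had little of either, with 0.858 and 1.03 CPM Y-linked and 3.58 and 2.07 CPM of Xist. The letter in the titles held a median of 0% of a gene's variance in both genotypes.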
